A study of Mus musculus with 6 samples.

Results

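Nuclear receptors are transcription factors that bind lipophilic ligands such as fatty acids, oxysterols, retinoids, thyroid hormone and steroids, or that act without a known ligand, and bind DNA at short hexamer repeats. In the liver they set the transcription of genes for lipid, bile acid, drug and glucose metabolism, and many of them do so as heterodimers with a retinoid X receptor. Coactivators and corepressors recruited to the bound receptor raise or lower transcription of the target gene.

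The genes described here are the nuclear receptor genes of a list of 40 symbols, each taken as the row of the deposited liver RNA-seq table that carries its symbol. Of the 40, 36 were found among the 28880 genes of the table, and Rorb, Nr2e3, Nr5a1 and Nr0b1 were not analysed here. RNA-seq libraries came from the livers of 3 mice acutely exposed to ethanol and 3 control mice, all male wild-type C57BL/6J mice aged 6 to 8 weeks and all labelled as 1 batch. The ethanol-exposed mice were fasted for 12 h and then given 6 g/kg of ethanol once by mouth, as a 50% solution, and their livers were taken 24 h later. Control mice received no ethanol. Whether the controls were fasted or gavaged is not stated, so ethanol and the fast cannot be told apart. The comparison asks how a single high dose of ethanol altered the liver transcriptome.

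Between 60514417 and 74210869 reads were counted on genes in each library. The TMM factors, which edgeR uses to scale the libraries to each other, were 0.768 to 0.836 for the ethanol group and 1.26 to 1.27 for the controls. The scaling therefore bears on the levels and fold changes between groups, though not on raw counts or on ratios within a mouse. Levels are given as normalised FPKM, the deposited FPKM (fragments relative to the length of the transcript and the size of the library) divided by the TMM factor of the library. Ethanol-exposed mouse 3 stood apart, with correlations of log2 CPM of 0.943 and 0.949 to the other two mice of its group, against 0.968 between those and 0.976 to 0.981 among control mice. The hepatocyte markers albumin (Alb) and transthyretin (Ttr) were at 21200 ± 2290 and 3550 ± 111 normalised FPKM in control mice (SD, n = 3), levels that match the liver label. A gene is called changed at an adjusted p under 0.05 (edgeR's two-sided quasi-likelihood test, Benjamini-Hochberg adjustment over all 16717 genes tested), and it is called a DEG when its log2 fold change also lies beyond 1.

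The filter on low counts kept 33 of the 36 genes. In ethanol-exposed mice 9 were higher and 10 lower than in control mice, together 57.6% of the 33, where 43.0% of all genes tested were called. Vdr, Nr1i2, Rora, Pparg, Rara, Hnf4a, Nr1h2, Rxra and Nr1i3 rose. Nr2f2, Nr2c1, Hnf4g, Nr1h3, Rxrg, Nr6a1, Nr2f6, Nr5a2, Thra and Nr3c2 fell. By direction, 27.3% of the receptors rose and 30.3% fell, beside 21.5% of all genes in each direction. DEGs were 4 rises (12.1%, beside 10.4% of all genes) and 3 falls (9.09%, beside 13.8%), together 21.2% of the receptors and 24.2% of all genes. These counts include Vdr, with counts only after ethanol, and Hnf4g, with counts only in controls. Each passed the filter only through that group, which fixed the direction of its call. The median log2 fold change was -0.19 over the receptors and -0.04 over all genes, and the median size of a log2 fold change was 0.68 in both. Most of the receptors that were called thus lay below the DEG threshold on the fold change. Standard errors (SE) of the log2 fold changes had a median of 0.22 for the receptors and 0.26 for all genes. The groups did not overlap in 22 of the 33 receptors, 66.7%, against 59.0% of all genes, nor in any of the 19 called. In whole liver, fewer cells of a type and less RNA per cell cannot be told apart.

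**Figure D1:**
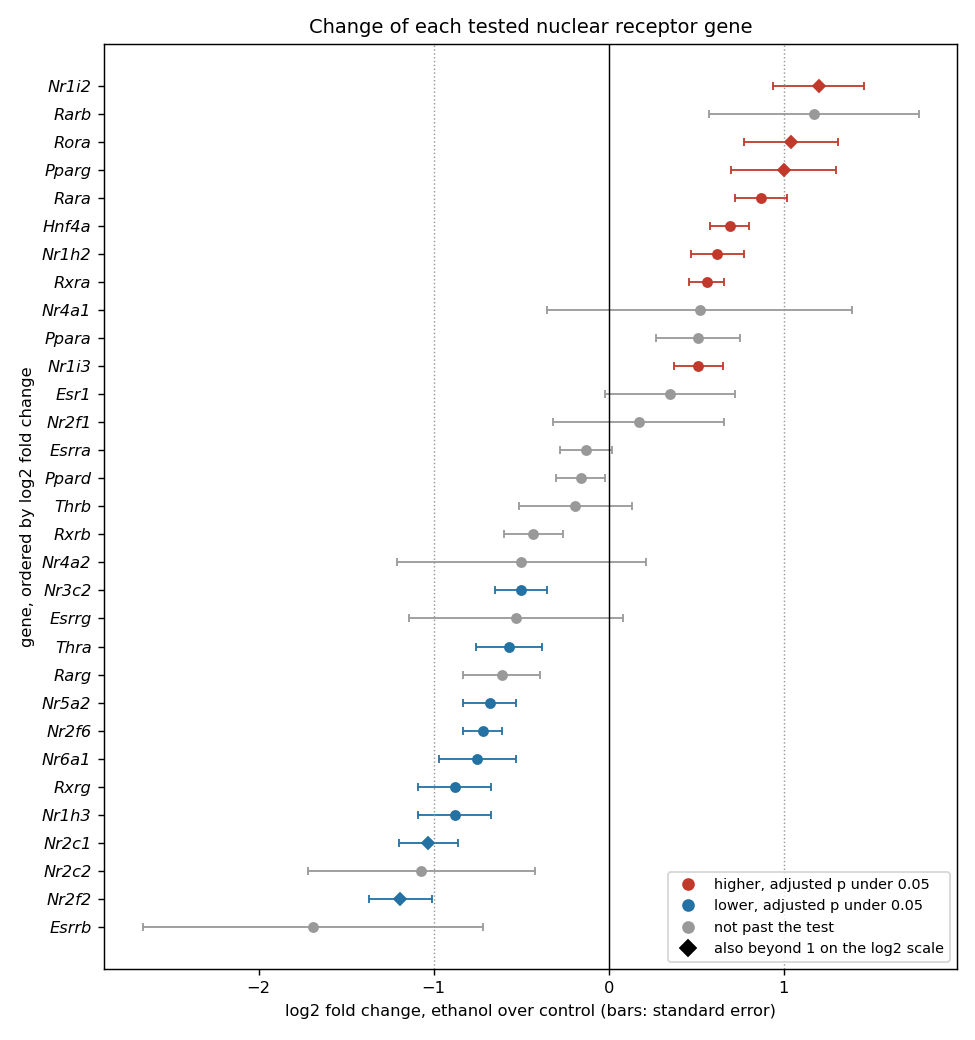
Log2 fold change (ethanol over control) of each tested nuclear receptor gene, with bars of 1 standard error. Colours mark genes past an adjusted p under 0.05 and diamonds those also beyond 1 on the log2 scale, while Vdr and Hnf4g, with no count in one of the groups, are left out. Nr1i2, at 1.20, has the highest value of those called and Nr2f2, at -1.19, the lowest.

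Levels differed widely between the receptors. In every library 19 of the 36 genes were at 1 normalised FPKM or more, 6 were at 10 or more, and 11 stayed below 1. Those at 10 or more were Hnf4a, Rxra, Nr1h3, Nr2f6, Nr1i3 and Nr1i2. Among the 36 genes in control mice, Hnf4a came first at 78.5 ± 2.79 (SD, n = 3) and Rxra second at 32.7 ± 1.47, and neither overlapped its neighbour. Nr1h3 (27.2 ± 2.38) and Nr2f6 (27.2 ± 1.84) could not be ordered beyond their spread. Nr1i3 (22.9 ± 1.16) and Nr1i2 (22.0 ± 1.26) overlapped between mice. Within each control mouse Nr1i2 was slightly below Nr1i3, at ratios of 0.968, 0.954 and 0.950. In ethanol-exposed mice the order after Hnf4a (127 ± 9.05) became Nr1i2 (50.3 ± 17.4), Rxra (48.2 ± 3.45), Nr1i3 (32.5 ± 5.13), Nr2f6 (16.4 ± 1.22) and Nr1h3 (14.7 ± 4.09). Nr1i2 thus moved from the sixth to the second place by its mean, and Nr1h3 from the third to the sixth, although in the ethanol group Nr1i2 overlapped Rxra and Nr1i3, and Nr1h3 overlapped Nr2f6. This order covers the 36 genes alone and not all receptors of the liver. Outside them, Nr0b2 and Nr1h4, taken up below, were at 35.5 ± 8.65 and 30.4 ± 3.02 in control mice. After ethanol they were at 4.68 ± 0.692 and 61.5 ± 16.7. Normalised FPKM summed over the 36 genes was 378, 380 and 333 in ethanol-exposed mice and 276, 285 and 275 in control mice. On the deposited FPKM scale, without the TMM factor, the same sums were 294, 318 and 255 against 349, 359 and 346, the opposite order.

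**Figure D2:**
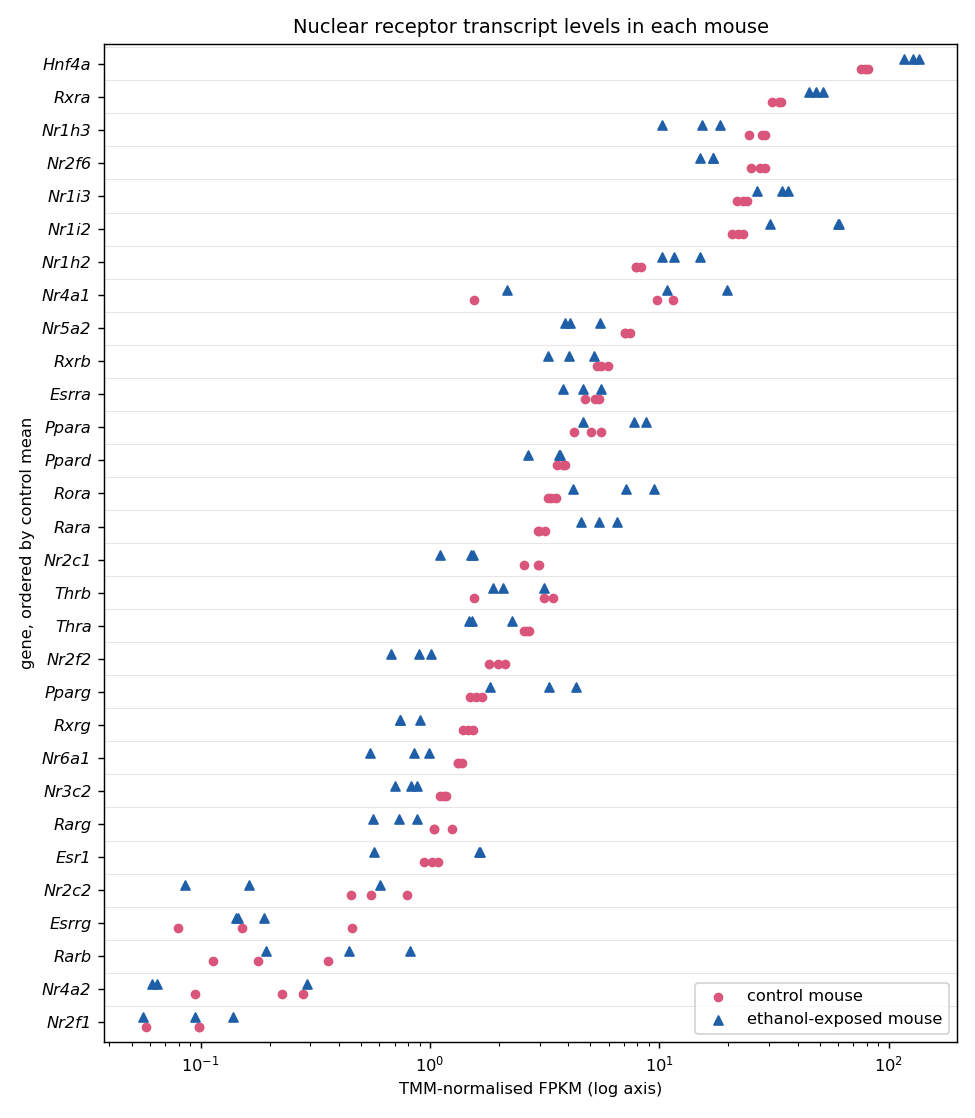
TMM-normalised FPKM (log axis) of nuclear receptor genes in each of the 3 control (circles) and 3 ethanol-exposed (triangles) mice, ordered by control mean. Vdr, Hnf4g, Esrrb, Esr2, Pgr and Nr4a3, which have a 0 in at least 1 mouse, are not drawn. Hnf4a is at the top in all 6 mice, and for Nr1h3 and Nr2f6 all triangles lie left of all circles.

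Promoter windows are shown for the called receptor with counts only after ethanol (Vdr) and for the receptors with the highest and the lowest change among those called and counted in both groups (Nr1i2 and Nr2f2). Each is the 250 bases before the RefSeq transcription start on GRCm38.p6, read 5′ to 3′ on the strand of the gene. The Vdr window is chr15:97908297-97908546 on the minus strand, the Nr1i2 window chr16:38294825-38295074 on the minus strand and the Nr2f2 window chr7:70366747-70366996 on the minus strand. Capitals mark the letters GGGCGG, the core of the GC box bound by Sp1-type factors.
Vdr: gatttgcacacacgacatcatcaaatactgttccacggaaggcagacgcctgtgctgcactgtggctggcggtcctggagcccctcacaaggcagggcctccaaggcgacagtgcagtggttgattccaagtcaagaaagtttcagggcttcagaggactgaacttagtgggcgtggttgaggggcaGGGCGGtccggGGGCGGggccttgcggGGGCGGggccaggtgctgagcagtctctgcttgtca
Nr1i2: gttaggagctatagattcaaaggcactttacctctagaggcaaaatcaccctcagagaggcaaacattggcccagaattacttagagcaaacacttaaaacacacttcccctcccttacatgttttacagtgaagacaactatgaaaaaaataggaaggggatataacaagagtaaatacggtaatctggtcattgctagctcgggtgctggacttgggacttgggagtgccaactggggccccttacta
Nr2f2: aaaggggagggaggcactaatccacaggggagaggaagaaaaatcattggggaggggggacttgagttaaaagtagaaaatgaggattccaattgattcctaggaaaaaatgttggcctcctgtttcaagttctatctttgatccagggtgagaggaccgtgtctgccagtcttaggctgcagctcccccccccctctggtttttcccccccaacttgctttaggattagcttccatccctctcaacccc
The Vdr window holds GGGCGG at 63, 52 and 36 bases before the start. The other two windows hold none of the motifs searched on both strands, which were AGGTCA (the nuclear receptor half-site), CACGTG (the E-box), TGACGTCA (the cAMP response element), GGGCGG and TATAAA. RefSeq windows were found for 37 of the 40 symbols, 58 windows in all. GGGCGG was in 26 of these 58 (44.8%) and in 32.7% of all 32851 windows, AGGTCA in 15.5% and 14.0%, CACGTG in 6.90% and 6.02%, TATAAA in 12.1% and 12.4%, and TGACGTCA in 0 of 58 and 1.55%. Among called receptors the half-site AGGTCA was found before Nr5a2, Nr6a1, Pparg, Rxra and Rxrg. GC content was 61.2% for the Vdr window, 44.0% for Nr1i2 and 50.0% for Nr2f2, with a median of 52.4% over all windows. A match is a description of the letters and not a shown binding site.

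Of the HNF4 receptors, Hnf4a rose while Hnf4g fell. HNF4-alpha (Hnf4a, ENSMUSG00000017950, chr2:163348728-163401030, plus strand, in the coordinates of the deposited table) binds DNA as a homodimer and maintains the program of differentiated hepatocytes. Its normalised FPKM was 128, 117 and 135 in ethanol-exposed mice 1 to 3 and 78.5, 81.3 and 75.7 in control mice 1 to 3. The groups lay well apart, with a log2 fold change of 0.69 (SE 0.11, adjusted p = 0.00243). This rise was relative to the TMM scaling. Deposited FPKM of Hnf4a averaged 100 and 99.0 in the ethanol and control groups, and with library size alone its log2 fold change was 0.02, where the median of all genes was -0.71. Hnf4a made up 33.8%, 30.8% and 40.6% of the summed normalised FPKM of the 36 receptor genes in ethanol-exposed mice and 28.4%, 28.6% and 27.6% in control mice. This is a ratio within each library that the scaling does not touch. The paralog Hnf4g, known mainly from the intestine, had 40, 15 and 21 counts in control mice and 0 in all 3 ethanol-exposed mice. Its level was at least 5.62-fold lower after ethanol, with 3 counts per library taken as the limit (adjusted p = 0.00739). Hnf4g passed the filter on low counts only through the controls, so a fall was the only call open to it.

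The xenobiotic receptors both rose. PXR (Nr1i2, ENSMUSG00000022809, chr16:38068685-38115186, minus strand) is activated by many drugs and by bile acids and induces enzymes of drug clearance. Its normalised FPKM was 60.7, 59.9 and 30.2 in ethanol-exposed mice and 23.2, 20.7 and 22.0 in control mice. Ethanol-exposed mouse 3 was closest to the controls but still above each of them. This was a rise of 1.20 on the log2 scale (SE 0.26, adjusted p = 0.00912), or of 1.47 without ethanol-exposed mouse 3. CAR (Nr1i3, ENSMUSG00000005677), which shares many targets with PXR, was at 34.4, 36.4 and 26.7 normalised FPKM in ethanol-exposed mice and at 24.0, 21.7 and 23.1 in control mice. All ethanol values exceeded all control values, by a log2 fold change of 0.51 (SE 0.14, adjusted p = 0.0221). The call of Nr1i3 was lost without any 1 library other than ethanol-exposed mouse 3, with adjusted p of 0.0743 and 0.0677 without ethanol-exposed mice 1 and 2 and 0.0577, 0.0920 and 0.0795 without control mice 1, 2 and 3. Nr1i3 shares its position with Tomm40l on the opposite strand, where 948 to 1383 reads were counted after ethanol and 1979 to 2506 in controls, and the strand setting of the counting is not stated. The ratio of Nr1i2 to Nr1i3 within each mouse was 1.76, 1.64 and 1.13 after ethanol and 0.968, 0.954 and 0.950 in control mice, without overlap.

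The oxysterol receptors changed in opposite directions. LXR-alpha (Nr1h3, ENSMUSG00000002108), the isoform enriched in liver that senses excess cholesterol, was at 15.4, 18.4 and 10.3 normalised FPKM in ethanol-exposed mice and at 24.5, 29.0 and 28.1 in control mice. LXR-beta (Nr1h2, ENSMUSG00000060601), the ubiquitous isoform, was at 11.6, 10.3 and 15.1 against 7.91, 8.28 and 7.94. Neither gene overlapped between the groups, and the mouse with the lowest Nr1h3 had the highest Nr1h2. The log2 fold change was -0.88 for Nr1h3 (SE 0.21, adjusted p = 0.0132) and 0.62 for Nr1h2 (SE 0.15, adjusted p = 0.0150). The ratio of Nr1h2 to Nr1h3 was 0.755, 0.558 and 1.46 in ethanol-exposed mice and 0.323, 0.285 and 0.283 in control mice. LXR-beta transcripts thus passed LXR-alpha transcripts in ethanol-exposed mouse 3 alone. The call of Nr1h3 was lost without control mouse 2 (adjusted p = 0.0519) or 3 (0.0501), and that of Nr1h2 without control mouse 1 (0.0581), 2 (0.0528) or 3 (0.0625). With library size alone Nr1h2 was at -0.05.

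Retinoid receptors bind 9-cis retinoic acid and related lipids (RXRs) or all-trans retinoic acid (RARs), and the RXRs are the shared partners of PPARs, LXRs, PXR, CAR, the thyroid hormone receptors and the vitamin D receptor. RXR-alpha (Rxra, ENSMUSG00000015846, chr2:27566452-27652969, plus strand) was at 48.0, 44.8 and 51.7 normalised FPKM in ethanol-exposed mice and 33.1, 34.0 and 31.1 in control mice. It rose by a log2 fold change of 0.56 (SE 0.10, adjusted p = 0.00528), which was -0.11 with library size alone. Rxrg, the least abundant RXR of the liver, fell by 0.88 on the log2 scale (SE 0.21, adjusted p = 0.0129), a call lost without control mouse 2 (adjusted p = 0.0542) or 3 (0.0503). Rxrb was at 4.15 ± 0.967 in ethanol-exposed and 5.64 ± 0.313 in control mice (SD, n = 3), with no overlap but an adjusted p of 0.0805. Without ethanol-exposed mouse 3 it passed, at -0.61 (adjusted p = 0.00388), as it did with upper quartile scaling (adjusted p = 0.0393), among genes averaging 1 FPKM or more (0.0403), with library size alone and with limma. The RXR pool therefore held a larger share of Rxra after ethanol, at 92.3%, 90.1% and 89.7% of the RXR sum against 82.6%, 81.9% and 82.0%.

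Of the RARs, Rara alone was called. RAR-alpha (Rara) rose by a log2 fold change of 0.87 (SE 0.15, adjusted p = 0.00370), from 3.03 ± 0.111 to 5.51 ± 0.979 normalised FPKM (SD, n = 3 per group). Rarg was at 0.724 ± 0.159 after ethanol and 1.10 ± 0.116 in control mice, and it did not pass (log2 fold change -0.61, adjusted p = 0.0634). Rarb, which overlaps Top2b on the opposite strand, had a log2 fold change of 1.17 with a standard error of 0.60 (adjusted p = 0.154). Without ethanol-exposed mouse 3 both passed, Rarg at -0.76 (adjusted p = 0.0147) and Rarb at 1.55 (adjusted p = 0.0288). With 1 library left out, Rarb ran from 0.58 without ethanol-exposed mouse 2 (adjusted p = 0.464) to 1.74 without control mouse 1 (adjusted p = 0.0924). Rarg also passed with upper quartile scaling (adjusted p = 0.0350), DESeq2 (0.0375), library size alone (0.00269) and limma. The ratio of Rara to Rarg in each mouse was 9.69, 8.92 and 5.19 after ethanol and 2.40, 3.05 and 2.85 in control mice.

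Among the fatty acid sensors, PPAR-gamma passed the test and PPAR-alpha and PPAR-delta did not. PPAR-gamma (Pparg, ENSMUSG00000000440, chr6:115337912-115467360, plus strand), the master regulator of fat cells whose hepatic expression favours lipid storage, was at 4.34, 3.31 and 1.83 normalised FPKM in ethanol-exposed mice and 1.49, 1.58 and 1.68 in control mice. Ethanol-exposed mouse 3 exceeded the highest control only narrowly. Its rise was 1.00 on the log2 scale (SE 0.30, adjusted p = 0.0318). This call was lost without any 1 library other than ethanol-exposed mouse 3, with adjusted p of 0.104 and 0.0786 without ethanol-exposed mice 1 and 2 and 0.105, 0.0957 and 0.0870 without control mice 1, 2 and 3. It was also lost without the filter on low counts. PPAR-alpha (Ppara), the driver of fatty acid oxidation in the fasted liver, was at 8.74, 7.73 and 4.62 against 5.58, 5.02 and 4.26, so ethanol-exposed mouse 3 lay within the control range. Its log2 fold change was 0.51 (adjusted p = 0.122), and 0.75 without ethanol-exposed mouse 3 (adjusted p = 0.00177). PPAR-delta (Ppard), which is expressed in most tissues, was at 3.34 ± 0.573 and 3.75 ± 0.153 (SD, n = 3), or -0.16 on the log2 scale (adjusted p = 0.396). It was called lower with library size alone and with limma.

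The vitamin D receptor (Vdr, ENSMUSG00000022479, chr15:97752306-97808511, minus strand) is a receptor that hepatocytes of normal liver scarcely express. It had 75, 49 and 43 counts in ethanol-exposed mice and 0 in all 3 control mice. Its level was at least 26.8-fold higher after ethanol, by the same limit of 3 counts per library (adjusted p = 0.00142), but it remained low, at 0.156 ± 0.0479 normalised FPKM (SD, n = 3). Vdr passed the filter on low counts only through the ethanol group, so a rise was the only call open to it. The thyroid hormone receptors mediate the action of triiodothyronine. Thra fell by 0.57 on the log2 scale (adjusted p = 0.0451), from 2.63 ± 0.0682 to 1.76 ± 0.449. Without any 1 library other than ethanol-exposed mouse 3 this call was lost, with adjusted p of 0.121 and 0.105 without ethanol-exposed mice 1 and 2 and 0.114, 0.108 and 0.126 without control mice 1, 2 and 3. It was also lost without the filter on low counts (adjusted p = 0.0603) and with the trend with length removed. Thrb, the isoform through which the liver responds to the hormone, was at 2.07, 3.14 and 1.88 against 3.43, 1.55 and 3.13. Its groups overlapped, as did the ratio of Thra to Thrb.

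ROR-alpha (Rora, ENSMUSG00000032238, chr9:68561068-69295528, plus strand) activates clock and lipid genes through the elements that REV-ERB receptors repress. Its normalised FPKM was 7.17, 9.47 and 4.22 in ethanol-exposed mice and 3.55, 3.26 and 3.37 in control mice. All ethanol values were above the controls, with mouse 3 again the closest. The log2 fold change was 1.04 (SE 0.27, adjusted p = 0.0179). The call was lost without ethanol-exposed mouse 1 (adjusted p = 0.0549) or control mouse 1 (0.0593), 2 (0.0686) or 3 (0.0670). The time of day of tissue collection is not given.

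Of the NR2 orphan receptors, which mostly act as repressors or compete with other receptors for their sites, 3 of 5 fell and 0 rose, where 21.5% of all genes were called in each direction. COUP-TFII (Nr2f2, ENSMUSG00000030551, chr7:70001692-70010341, minus strand), a regulator of metabolism in hepatocytes and of vein and mesenchymal cell identity, was at 0.673, 0.894 and 1.01 normalised FPKM in ethanol-exposed mice. In control mice it was at 2.13, 1.97 and 1.80. Every ethanol value was below every control value, and the log2 fold change was -1.19 (SE 0.18, adjusted p = 0.00213). TR2 (Nr2c1, ENSMUSG00000005897, chr10:93983885-94033073, plus strand), an orphan receptor known for repression of fetal globin genes with TR4, was at 1.51, 1.54 and 1.11 after ethanol and at 2.96, 2.57 and 2.99 in control mice. The log2 fold change of Nr2c1 was -1.03 (SE 0.17, adjusted p = 0.00317), and the groups did not overlap. EAR2 (Nr2f6, ENSMUSG00000002393, chr8:71826767-71834604, minus strand), a repressor related to the COUP-TFs, was at 17.2, 15.0 and 17.1 against 28.9, 27.4 and 25.2. It fell by 0.72 on the log2 scale (SE 0.11, adjusted p = 0.00209), again without overlap. Nr2f6 overlaps Ocel1 on the opposite strand, whose counts were 297 to 597 in ethanol-exposed and 2247 to 2622 in control mice, so the counts of these genes cannot be told apart with certainty. Within each mouse the ratio of Hnf4a to Nr2f6 was 7.44, 7.81 and 7.92 after ethanol and 2.72, 2.97 and 3.01 in control mice. TR4 (Nr2c2), which overlaps Mrps25 on the opposite strand, was at 0.0855, 0.162 and 0.605 against 0.793, 0.555 and 0.454. Its log2 fold change of -1.07 did not pass (adjusted p = 0.223), but it was -2.24 without ethanol-exposed mouse 3 (adjusted p = 0.00112), and it was called lower with limma. Nr2f1 had 18 to 46 counts per library and a log2 fold change of 0.17 (adjusted p = 0.796).

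LRH-1 (Nr5a2, ENSMUSG00000026398), a phospholipid-binding receptor that promotes bile acid synthesis, fell by 0.68 on the log2 scale (SE 0.15, adjusted p = 0.0104). Its level was 4.48 ± 0.902 normalised FPKM in ethanol-exposed mice and 7.18 ± 0.197 in control mice (SD, n = 3 per group). GCNF (Nr6a1), a repressor best known from germ cells and early embryos, fell by 0.75 (adjusted p = 0.0288), from 1.34 ± 0.0285 to 0.797 ± 0.228. The Nr6a1 call was lost without ethanol-exposed mouse 1 (adjusted p = 0.0665) or control mouse 1 (0.0799), 2 (0.0885) or 3 (0.0808), and after removal of the trend with length described below. The ratio of Hnf4a to Nr5a2 was 31.4, 30.4 and 24.5 after ethanol and 11.1, 11.5 and 10.2 in control mice.

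Of the 4 steroid receptor genes of the list, only 2 passed the filter on low counts. The mineralocorticoid receptor (Nr3c2), which binds aldosterone and cortisol, fell by 0.50 on the log2 scale (adjusted p = 0.0349), from 1.14 ± 0.0384 to 0.803 ± 0.0883 normalised FPKM (SD, n = 3). Its call was lost without any 1 library other than ethanol-exposed mouse 3, with adjusted p of 0.0528 and 0.0648 without ethanol-exposed mice 1 and 2 and 0.0785, 0.115 and 0.106 without control mice 1, 2 and 3. Estrogen receptor alpha (Esr1), the estrogen receptor of hepatocytes, was at 1.63, 1.65 and 0.572 against 0.944, 1.02 and 1.08. Ethanol-exposed mouse 3 was thus below the controls and the other two above them. The log2 fold change of Esr1 was 0.35 (adjusted p = 0.472), and 0.71 without ethanol-exposed mouse 3 (adjusted p = 0.000873). Esr2 had 4, 0 and 0 counts in ethanol-exposed mice and 0 in control mice, and the progesterone receptor gene Pgr had 8 counts in control mouse 3 and 0 elsewhere. Neither passed the filter on low counts. The 3 estrogen-related receptors, orphan regulators of mitochondrial genes, were not called. Esrra, the most abundant of them, was at 4.67 ± 0.886 and 5.14 ± 0.350 (log2 fold change -0.13, adjusted p = 0.509). It was called lower with library size alone (-0.80, adjusted p = 0.00703) and with limma. Esrra overlaps Trmt112 on the opposite strand, with 550 to 568 counts after ethanol and 1112 to 1295 in control mice, so its counts are uncertain. Esrrb had 0, 11 and 11 counts against 51, 32 and 23 (adjusted p = 0.199, called lower with limma), and Esrrg 73, 58 and 53 against 286, 41 and 83 (adjusted p = 0.509).

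The NR4A receptors are immediate-early genes that respond within a short time to glucagon, stress and growth signals. NUR77 (Nr4a1) was at 10.8, 19.7 and 2.17 normalised FPKM in ethanol-exposed mice and 1.56, 11.5 and 9.75 in control mice. Both groups held 1 mouse far below the other two, and the adjusted p was 0.652 at a log2 fold change of 0.52 with a standard error of 0.87. NURR1 (Nr4a2) had 16, 78 and 16 counts against 40, 93 and 81 (adjusted p = 0.592). NOR1 (Nr4a3) had 82, 167 and 8 counts in ethanol-exposed mice and 0, 5 and 0 in control mice, without overlap. It did not pass the filter on low counts. With no filter its log2 fold change was 6.00 (adjusted p = 0.0228), and DESeq2 gave 6.04 (adjusted p = 0.00746). Within the filter it passed only without ethanol-exposed mouse 3 (adjusted p = 0.00102) or control mouse 2 (adjusted p = 0.0320). It missed the threshold, although tested, without control mouse 1 (0.0561) or control mouse 3 (0.0567).

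The balance between related receptors was compared by their ratio within each mouse, which does not depend on the scaling between libraries. The 9 pairs were chosen after the values were seen. In 7 of them the groups did not overlap. Each of these had a two-sided exact permutation p of 0.1, the smallest that 3 against 3 mice allows. Benjamini-Hochberg adjustment over the 9 gave 0.129. Given how the pairs were chosen, these p-values cannot test the balance, and no conclusion is drawn from them. Non-overlap was not counted for ratios of other gene pairs, and for single genes tested its share was 59.0%. The mean log2 ratio was higher after ethanol by 1.52 for Nr1h2 over Nr1h3, by 1.48 for Rara over Rarg, by 1.41 for Hnf4a over Nr2f6 and by 1.39 for Hnf4a over Nr5a2. It was higher by 1.02 for Rxra over Rxrb, by 0.63 for Nr1i2 over Nr1i3 and by 0.45 for Pparg over Ppara, whose groups nearly touched (0.395 as the lowest ethanol and 0.394 as the highest control ratio). The groups overlapped for Thra over Thrb (exact permutation p = 0.4) and Nr2c2 over Nr2c1 (exact permutation p = 0.6).

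**Figure D3:**
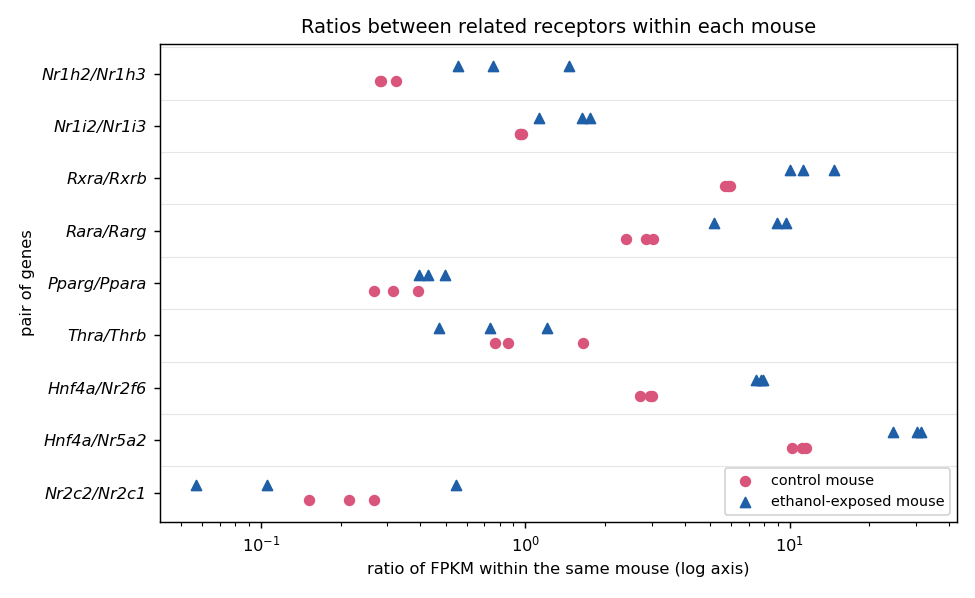
Ratio of the FPKM of related receptors within each mouse (log axis), for 3 control mice (circles) and 3 ethanol-exposed mice (triangles). The ratio of Hnf4a to Nr2f6 lies at 7.44 to 7.92 after ethanol and 2.72 to 3.01 in control mice, while Thra/Thrb and Nr2c2/Nr2c1 overlap.

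The direction of several rises rested on the scaling. With library size alone the median over all genes was at -0.71 on the log2 scale, and of the 9 rises that of Vdr alone was called. Relative to that median the other 8 stayed above 0, since their log2 fold changes ran from -0.16 for Nr1i3 to 0.54 for Nr1i2. Taking off the median is itself a scaling between groups, much as TMM is, so it cannot show that the rises hold without one. All 10 falls were called with library size alone too, a setting that shifts fold changes down and so favours falls. Of the 19 calls, those of Nr2c1, Nr2f2, Nr2f6 and Nr5a2 held in all 16 alternatives and those of Vdr and Hnf4g in all 15 in which they were tested. The limma fits on FPKM carry no TMM factor either, so this tally favours falls and does not rank them as sturdier than rises. Log2 fold change also varied with transcript length across all genes, with a median of 0.26 in the quartile of shortest genes and -0.18 in that of the longest. None of the tested receptors lay in the quartile of shortest genes. With this trend removed, a setting chosen after seeing the data, 9 receptors rose and 7 fell, the calls of Thra, Nr3c2 and Nr6a1 being lost. The part of scaling and length in these results was not tested further.

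**Figure D4:**
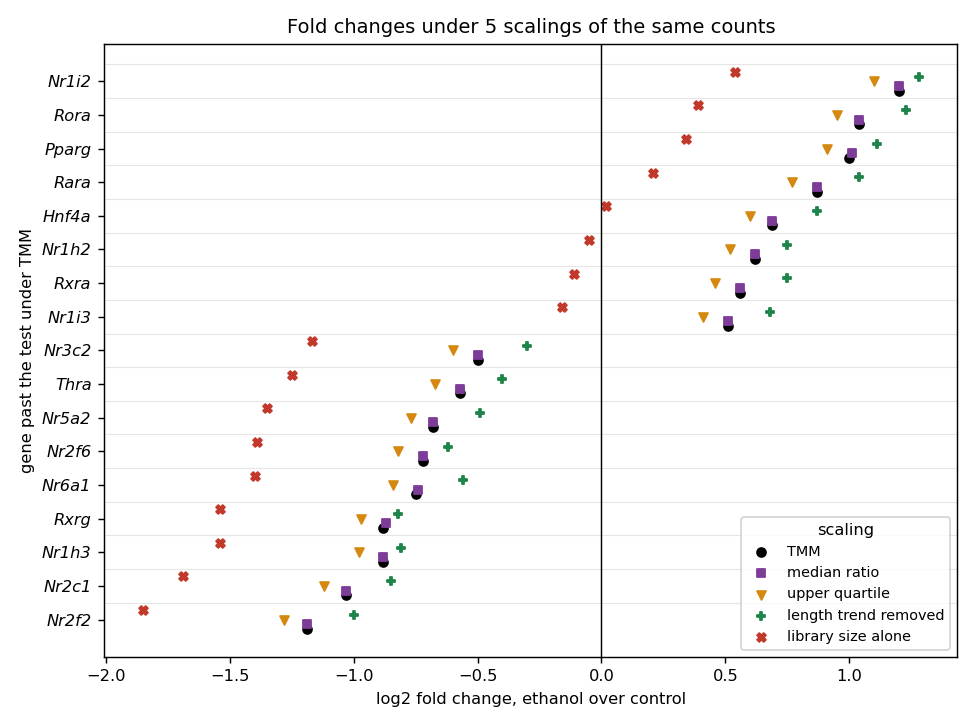
Log2 fold change (ethanol over control) of the 17 called receptors with counts in both groups under 5 scalings of the same counts. Library size alone (crosses) shifts all of them down, Nr1i3 to -0.16 and Nr2f2 to -1.85, while median ratio scaling lies on the TMM values.

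Coregulators and other receptors were taken from lists written with earlier results of these data known. Their counts stand beside 21.5% of all genes called in each direction and a median log2 change of -0.04 over all genes, and nothing particular to a list is read from them. Of 12 coactivators, 2 rose and 4 fell, with a median log2 fold change of -0.24. Ncoa6 rose by 0.69 (adjusted p = 0.00304) and Ppargc1b, which encodes the PPAR and ERR coactivator PGC-1-beta, by 2.16 (adjusted p = 0.0197). Smarca4, the BRG1 ATPase of the SWI/SNF chromatin remodelling complex, fell by 0.96 (adjusted p = 0.00254) and the p160 coactivator Ncoa3 by 0.59 (adjusted p = 0.00451). Of 9 corepressors, 2 rose and 2 fell (median 0.27). Tbl1xr1, a subunit of the NCoR complex, rose by 2.05 on the log2 scale (adjusted p = 0.000537) and Nrip1 by 1.53 (adjusted p = 0.0138), while Tbl1x fell by 0.48 (adjusted p = 0.0143) and Sin3a by 0.48 (adjusted p = 0.0213). Of 8 other nuclear receptors tested, 2 rose and 3 fell (median 0.01). SHP (Nr0b2), the repressor of bile acid synthesis that lacks a DNA-binding domain, went from 35.5 ± 8.65 to 4.68 ± 0.692 normalised FPKM (SD, n = 3), or by -2.92 on the log2 scale (adjusted p = 0.000193). The bile acid receptor FXR (Nr1h4) rose by 1.02 on the log2 scale (adjusted p = 0.00698). Nr1h5, the FXR paralog known as FXR-beta, was at -1.43 (adjusted p = 0.0185).

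Textbook target genes were listed by receptor, and these lists share targets with other regulators. The same 21.5% of all genes called in each direction applies to their counts. Of 15 PPAR-alpha targets, 6 rose and 0 fell (median log2 fold change 0.74), among them the lipase inhibitor Angptl4 at 1.75 (adjusted p = 0.000342) and Cpt1a, the entry step of mitochondrial fatty acid oxidation, at 1.17 (adjusted p = 0.000426). Of 5 PPAR-gamma targets tested, 4 rose and 0 fell (median 1.69). The lipid droplet genes Cidec and Plin4 rose most, from 0.473 ± 0.217 to 33.6 ± 15.4 and from 0.472 ± 0.0229 to 9.85 ± 4.84 normalised FPKM, log2 fold changes of 6.15 (adjusted p = 0.000211) and 4.38 (adjusted p = 0.000281).

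Of 9 LXR targets, 4 rose and 0 fell (median 1.07), while Nr1h3 fell and Nr1h2 rose. The cholesterol exporter Abca1 rose by 1.97 on the log2 scale (adjusted p = 0.000626) and the sterol transporter Abcg5 by 1.68 (adjusted p = 0.00265). Of 13 CAR and PXR targets, 7 rose and 1 fell (median 0.70). Cytochrome P450 oxidoreductase (Por), the electron donor of the microsomal P450 enzymes, rose from 20.0 ± 2.22 to 250 ± 27.7 normalised FPKM (log2 fold change 3.64, adjusted p = 4.51e-05). Alas1, the first enzyme of haem synthesis, rose by 2.86 (adjusted p = 7.45e-05), and Cyp2c55 fell by 1.79 (adjusted p = 0.000753). Cyp2b10 and Cyp3a11, named after their values were seen as the genes most used to read CAR and PXR, were at 4.25 (adjusted p = 9.88e-05) and 0.25 (adjusted p = 0.170). Counts of such multigene families are uncertain where reads can be split between copies.

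Of 5 thyroid hormone receptor targets, 3 rose and 1 fell (median 0.56), with Klf9 at 1.64 (adjusted p = 9.88e-05), the lipogenic gene Thrsp at 2.90 (adjusted p = 0.000640) and malic enzyme Me1 at -0.69 (adjusted p = 0.0176). Of 5 retinoic acid receptor targets tested, 2 rose and 1 fell (median 0.71). Tgm2 (1.98, adjusted p = 8.08e-05) and the retinoic acid hydroxylase Cyp26a1 (2.12, adjusted p = 0.00900) rose, and the retinal reductase Dhrs3 fell by 1.77 (adjusted p = 9.84e-05). Of 9 HNF4-alpha targets tested, 3 rose and 1 fell (median 0.32). Apoa2 rose by 0.91 on the log2 scale (adjusted p = 0.00187) and Apoc3 by 0.86 (adjusted p = 0.00285), whereas G6pc1, the catalytic subunit of glucose-6-phosphatase, fell by 2.89 (adjusted p = 0.00374). Of 4 LRH-1 targets, Scarb1, the HDL receptor, rose by 0.92 (adjusted p = 0.00169), Nr0b2 fell as above, and the median was -0.24. Of 7 ERR-alpha targets tested, 4 rose and 1 fell (median 0.42). Cox5b (0.73, adjusted p = 0.00357) and Cycs (0.47, adjusted p = 0.00993), both of the respiratory chain, rose, and Idh3a fell by 0.42 (adjusted p = 0.0437). Under library size alone fewer list genes rose and more fell, 16 and 31 in place of 39 and 14, as over all genes, where 1236 rose and 8077 fell in place of 3598 and 3591.

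**Figure D5:**
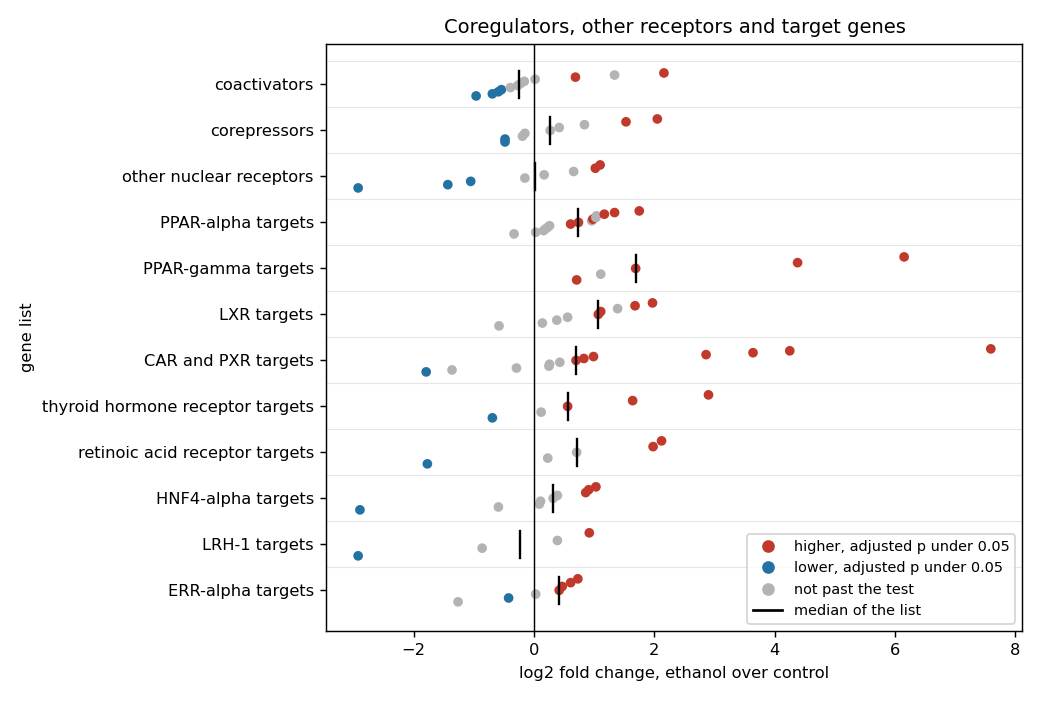
Log2 fold change (ethanol over control) of each tested gene in 12 lists of coregulators, other receptors and receptor targets, coloured by the test, with a bar at the median of each list. The PPAR-gamma targets have the highest median, 1.69, and the coactivators and LRH-1 targets the lowest, -0.24.

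Markers of liver cell types were counted in the same way, beside the 21.5% of all genes called in each direction. Of 9 hepatocyte markers tested, 7 rose and 0 fell (median log2 fold change 0.69, the value of Hnf4a), and their summed level was 66300 to 72300 normalised FPKM after ethanol and 37800 to 42700 in controls. Of 8 Kupffer cell markers 0 rose and 2 fell, with sums of 44.3 to 61 and 55.0 to 60.5. Of 7 sinusoidal endothelial markers 2 rose and 2 fell (20.8 to 41.4 against 18.6 to 22.1). Stellate cell markers had 2 rises and 2 falls among 8 (18.3 to 21.6 against 16.0 to 20.9), and cholangiocyte markers 1 rise and 0 falls among 5 (21.3 to 29.7 against 15.9 to 39.0). Of 6 neutrophil markers 3 were tested and all 3 rose (2.35 to 15.5 against 0.306 to 0.526). Of these, S100a8 and Cxcr2, named after their values were seen, averaged 0.0208 and 0.0123 normalised FPKM in control mice. They could pass the filter on low counts only through the ethanol group, so their direction was set by the filter and the count of rises is no test. Ly6g was at 0 in control mice, and Mpo and Elane were at 0 in ethanol-exposed mice. The part of cell composition in the receptor results was not tested.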

How the data were processed

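Per gene and library the authors deposited a whole-number read count, not normalized, and an FPKM value scaled to transcript length and mapped reads. Adaptor, low-quality and ambiguous reads had been removed before alignment; aligner, counting software and strand setting are not given in the sources used here. The processing notes name GRCm38 (mm10), but 0 of the 36 receptor genes had the table's coordinates in the GRCm38 annotation, so gene coordinates are those of the table, and promoters are from RefSeq on GRCm38.p6. A column of counts that matches no library (1) was not used. Counts were filtered by filterByExpr, scaled by TMM and tested by edgeR 4.0.16 (quasi-likelihood, R 4.3.3) over all genes, with limma 3.58.1 and DESeq2 1.42.0 as alternatives. Samples were grouped by their labels. Counts of libraries of a group differed beyond sampling noise (chi-square over its degrees of freedom, 54.4 to 521). A gene at 3 counts or fewer in all libraries of a group gives a bound, the mean CPM of the other group over the mean CPM of 3 counts per library, covering counting error only. On counts simulated for this comparison (16802 genes), edgeR recovered 98 of 100 genes changed by 2 on the log2 scale and 18 of 100 changed by 1, with 4 false calls. Only 200 genes were changed there, equally in both directions and with the same dispersion for all genes. In the data far more genes were called and the TMM factors differed between the groups, so these rates do not carry over to the calls.

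The receptors and lists were chosen with earlier results of these data known. Values by mouse are given for DEGs and the 5 receptors of highest mean level, and list genes are at most the 2 with the smallest adjusted p in each direction. Values by mouse of other receptors were added after they were seen. A result for 1 gene of the lists is not reported here.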

Additional observations from a re-analysis of the deposited data

How the results depend on the processing

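Under TMM 9 receptors rose and 10 fell (DEGs 4 and 3), and 39 list genes rose and 14 fell. With library size alone these were 1 and 14 (DEGs 1 and 12), and 16 and 31. With limma on log2(FPKM + 1) they were 1 and 16 (0 and 5), and 14 and 31, and on log2(FPKM + 0.1) 1 and 16 (1 and 12), and 14 and 32. FPKM carries no TMM factor, and over all genes falls were 87.4% and 87.3% of the calls with limma and 94.1% over receptors in both. The share of calls that were falls was 50.0% over all genes and 52.6% over receptors, 86.7% and 93.3% with library size alone, and 42.9% and 43.8% with the length trend removed, a setting chosen after seeing the data. DEG rises were 2 with upper quartile scaling and 1 when only genes averaging 1 FPKM or more were tested. Leaving out each library in turn, 5 to 13 receptors rose and 5 to 13 fell (DEGs 2 to 6 and 2 to 4), as did 28 to 55 and 8 to 18 list genes, while 2508 to 4351 of all genes rose and 2346 to 4827 fell, also most without ethanol-exposed mouse 3. The most receptors, 13 and 13, were called without ethanol-exposed mouse 3, Nr4a3 included.

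Without a call in either setting, log2 fold changes turned negative with library size alone and limma with pseudocounts of 1 and 0.1 for Ppara (-0.15, -0.17, -0.20), Esr1 (-0.31, -0.20, -0.42), Nr2f1 (-0.48, -0.04, -0.24) and Nr4a1 (-0.11, -0.16, -0.20). Rxra (-0.11, -0.11, -0.11), Nr1h2 (-0.05, -0.06, -0.07) and Nr1i3 (-0.16, -0.17, -0.18) lost their call and turned negative. Relative to the median of all genes in the same setting, each of these genes stayed above 0. With library size alone Ppara was at 0.56, Esr1 at 0.40, Nr2f1 at 0.23 and Nr4a1 at 0.60 by that measure. Since taking off the median scales the groups much as TMM does, these values do not show rises that are free of scaling. With the length trend removed Ppard was at 0.03, Thrb at 0.01 and Esrra at 0.04. Over the sets with 1 library left out, Thrb ran from -0.47 to 0.02 and Esrrg from -0.93 to 0.45 (both highest without control mouse 1). Nr2f1 ran from -0.19 to 0.44, below 0 without ethanol-exposed mouse 2 or control mouse 1, and Nr4a1 from -0.23 (without ethanol-exposed mouse 2) to 1.01. The log2 fold change of Nr2c2 less that of Nr2c1 was 0.60 and 0.05 with limma and ran from -1.35 to 0.45, above 0 without ethanol-exposed mouse 1 or 2 or control mouse 1. The cause was not tested.

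Same-numbered mice did not deviate together (correlations of -0.03, -0.02 and -0.02), so the numbers do not pair them. With the replicate number as a block 7 receptors rose and 8 fell (DEGs 2 and 3), where 2890 of all genes rose and 2886 fell in place of 3598 and 3591, and Pparg (adjusted p = 0.0683), Thra (0.0532), Nr3c2 (0.0849) and Nr1i3 (0.0520) lost their call. No mouse correlated best with the mouse of its own number in the other group. At this depth, of the receptors tested, Hnf4g, Vdr, Esrrb, Nr2f1 and Nr4a2 had fewer than 100 counts in each library, and each group had 3 mice. Esr2 and Pgr, which did not pass the filter on low counts, were also below 100 in each library.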
